A study of Mus musculus with 8 samples.

Results

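The 36 genes described here make up the protein folding machinery of the endoplasmic reticulum (ER) and the unfolded protein response that controls it. They were chosen by mouse symbol as ER chaperones, disulfide isomerases, degradation, translocon, export and sensor genes. All 36 matched 1 gene each among the 55401 genes of the count table, and all 36 were among the 17470 genes with enough counts to test. The RNA came from bone marrow-derived macrophages (BMDM), which are macrophages grown in culture from mouse bone marrow. The stimulated KO group came from Lyz2-Cre-Mettl3fl/fl mice, and its cells received 50 ng/ml LPS overnight and then 10 µM nigericin. The stimulated WT group came from Mettl3fl/fl mice and received the same agents. The KO PBS group (Lyz2-Cre-Mettl3fl/fl) and the WT PBS group (Mettl3fl/fl) received PBS. Sample labels give 3 h of nigericin, while the series text names 1 h or 3 h. Each group had 2 libraries, 8 in all. All 4 groups carry loxP-flanked Mettl3 alleles, and the KO groups alone carry Cre, which the Lyz2 promoter drives in myeloid cells, so loss of Mettl3 and presence of Cre cannot be told apart. METTL3 is the catalytic subunit of the enzyme that writes N6-methyladenosine on mRNA, LPS is a bacterial ligand of TLR4, and nigericin lets potassium leave the cell and thereby triggers the NLRP3 inflammasome.

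The ER folds secreted and membrane proteins with Hsp70 and Hsp90 chaperones, lectin chaperones and disulfide isomerases, and sends misfolded chains back to the cytosol for degradation. When folding capacity falls short, 3 membrane sensors respond. IRE1 (Ern1) splices the mRNA of the transcription factor XBP1, ATF6 is cleaved to release a transcription factor, and PERK (Eif2ak3) phosphorylates eIF2 and so favours translation of ATF4. Spliced XBP1 and cleaved ATF6 act on chaperone and degradation genes, while ATF4 acts on amino acid, redox and CHOP (Ddit3) genes. Macrophages draw on this machinery when they secrete cytokines, and Toll-like receptor signals are known to engage IRE1 and XBP1 in them.

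Libraries held between 55032057 and 65487739 counts. Mettl3 was lower in KO than in WT with both treatments (log2 -1.61 ± 0.14 after stimulation, adjusted p = 0.00283, and -1.17 ± 0.14 with PBS, adjusted p = 0.0143, edgeR, SE, n = 2 per group), as the labels say. The PBS call of Mettl3 was lost without any 1 of the 4 PBS libraries (adjusted p up to 0.0805). Summed over 6 macrophage markers the level was 11230 and 10780 CPM in stimulated KO, 12310 and 12750 in stimulated WT, 9191 and 9608 in KO with PBS and 8316 and 8708 in WT with PBS, so the defining markers of the labelled cell type were present in all 8 libraries. CPM stands for counts scaled to 1 common library size, corrected for composition. No source used here states if both libraries of a group stem from different cultures or different mice, so the p-values reflect only how far these libraries differ, and that spread may be technical. The 36 genes took 0.837 and 0.854% of all counts in stimulated KO, 0.638 and 0.6445% in stimulated WT, 0.5875 and 0.577% in KO with PBS and 0.503 and 0.489% in WT with PBS. In such bulk samples a change in the number of cells of a type and a change in RNA per cell cannot be told apart.

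Promoter sequence was looked at first, because the response is known for a shared DNA element. RefSeq gives a promoter of GRCm38.p6, from 250 bases before to 50 bases after the transcription start, for 28 of the 36 genes. None was at hand for Atf6, Derl1, Hyou1, Manf, Ostc, Sec61a1, Ssr2 and Tram1. The ER stress element (ERSE), searched on both strands as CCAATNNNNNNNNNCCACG, is known as a site for ATF6 together with NF-Y. It was found without mismatch in the promoters of 9 of these 28 genes (32.1%), against 37 of all 27025 genes with a promoter (0.137%). The genes were chosen for a response already known for this element, so the contrast is no independent finding. The 9 genes were Calr, Canx, Creld2, Derl3, Dnajc3, Hsp90b1, Hspa5, Pdia6 and Syvn1, and Hsp90b1 held a pair of copies. With 1 mismatch allowed, the element was found in 14 of the 28 genes (50.0%), against 1.724% of all genes with a promoter. ERSE-II, searched as ATTGGNCCACG, was in Dnajb11 and Herpud1 and in 0.044% of all genes with a promoter. The XBP1-bound element TGACGTGG was in Sec24d alone among the 28 (0.714% of all genes with a promoter), and TGATGCAA, a form of the composite C/EBP-ATF element that ATF4 binds, was in Herpud1 alone (1.032%). ERSE and ERSE-II share the letters CCACG, which TGACGTGG holds on its other strand, and no exact matches overlapped in these promoters. A match describes letters in this window and is no measurement of binding. The windows below show the element with its flanks, 5′ to 3′ on the strand of the gene, with capitals for the fixed bases of the element. Hspa5, Calr, Hsp90b1, Pdia6 and Creld2 are shown because their RNA was higher in KO than in WT after stimulation, as given further on. Dnajc3 is shown as a perfect copy in a gene that passed in none of the comparisons by edgeR with composition-corrected scaling, and Herpud1 as 1 of the 2 genes with ERSE-II. They lie at chr2:34772015-34772053 (Hspa5, plus strand), chr8:84847065-84847103 (Calr, minus), chr10:86705628-86705666 and chr10:86705523-86705561 (Hsp90b1, minus), chr12:17266481-17266519 (Pdia6, plus), chr15:88819510-88819548 (Creld2, plus), chr14:118937817-118937855 (Dnajc3, plus) and chr8:94386367-94386397 (Herpud1, plus).
Hspa5: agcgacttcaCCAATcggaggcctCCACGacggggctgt
Calr: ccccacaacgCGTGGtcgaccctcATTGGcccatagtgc
Hsp90b1, distal copy: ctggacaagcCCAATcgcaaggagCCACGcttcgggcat
Hsp90b1, proximal copy: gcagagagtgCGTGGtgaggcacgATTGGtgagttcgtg
Pdia6: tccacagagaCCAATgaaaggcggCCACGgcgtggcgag
Creld2: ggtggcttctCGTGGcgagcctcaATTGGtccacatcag
Dnajc3: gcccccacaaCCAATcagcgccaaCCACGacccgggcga
Herpud1, ERSE-II: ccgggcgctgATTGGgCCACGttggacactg

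In Hspa5 the element ran from base -65 to base -47 relative to the start, and in Calr, where it lies on the opposite strand, from -162 to -144. Across the 9 genes the copies started between base -212 (distal copy of Hsp90b1) and base -44 (Syvn1). Hence every exact ERSE of these genes lay upstream of the start.

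**Figure D1:**
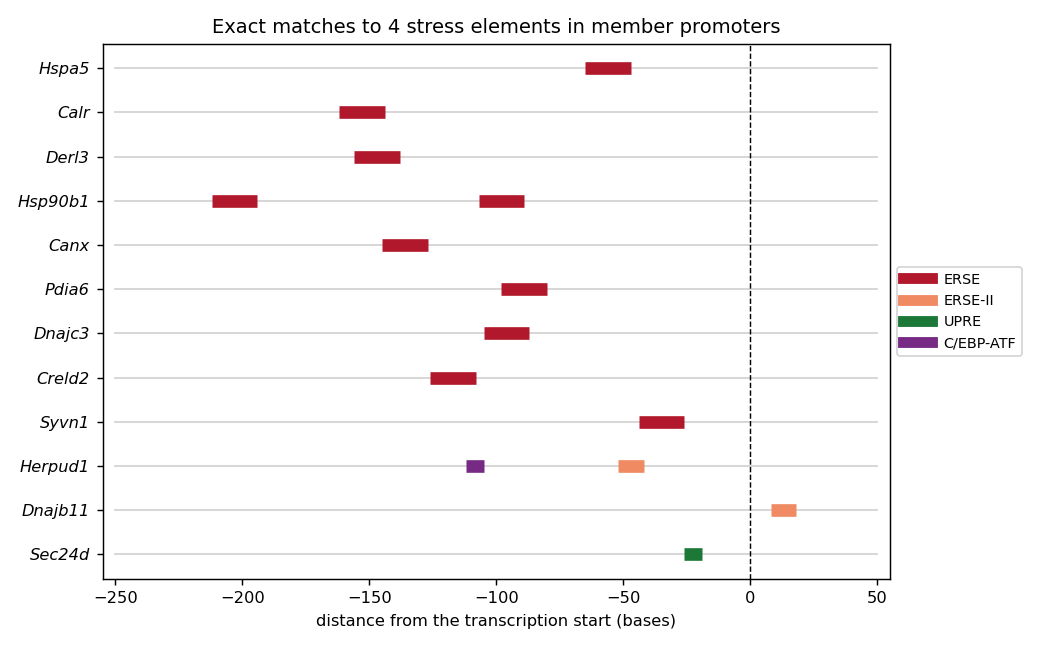
Position of exact matches to 4 stress elements in the promoters of 12 members, in bases from the transcription start (dashed line); grey lines span the 300 bases searched. The ERSE copies (red) all lie before the start, and the ERSE-II of Dnajb11 (orange) starts at base 8 after it.

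The comparison of LPS and nigericin with PBS asked how the stimulus moves this machinery in each genotype. After stimulation 9 of 10 chaperones, all 5 genes of disulfide exchange, 4 of 8 degradation genes and 3 of 7 translocon genes carried more mRNA in both genotypes, while the sensors Atf6 and Eif2ak3 carried less. By edgeR's quasi-likelihood test with Benjamini-Hochberg adjustment over all tested genes and a threshold of 0.05, 23 of the 36 genes rose and 2 fell in KO, against 20.2% and 19.0% of all genes tested. In WT, 25 rose and 3 fell, against 20.6% and 20.0% of all genes. The median log2 change of the 36 was 0.54 in KO and 0.49 in WT, beside -0.03 and -0.01 over all genes. The same 23 genes rose in both genotypes, and Atf6 and Eif2ak3 fell in both. Scaling by library size alone, which moved the all-gene median in WT to -0.20, left 19 higher and 5 lower in WT. Over all 17470 genes that scaling left 2713 higher and 4720 lower.

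**Figure D2:**
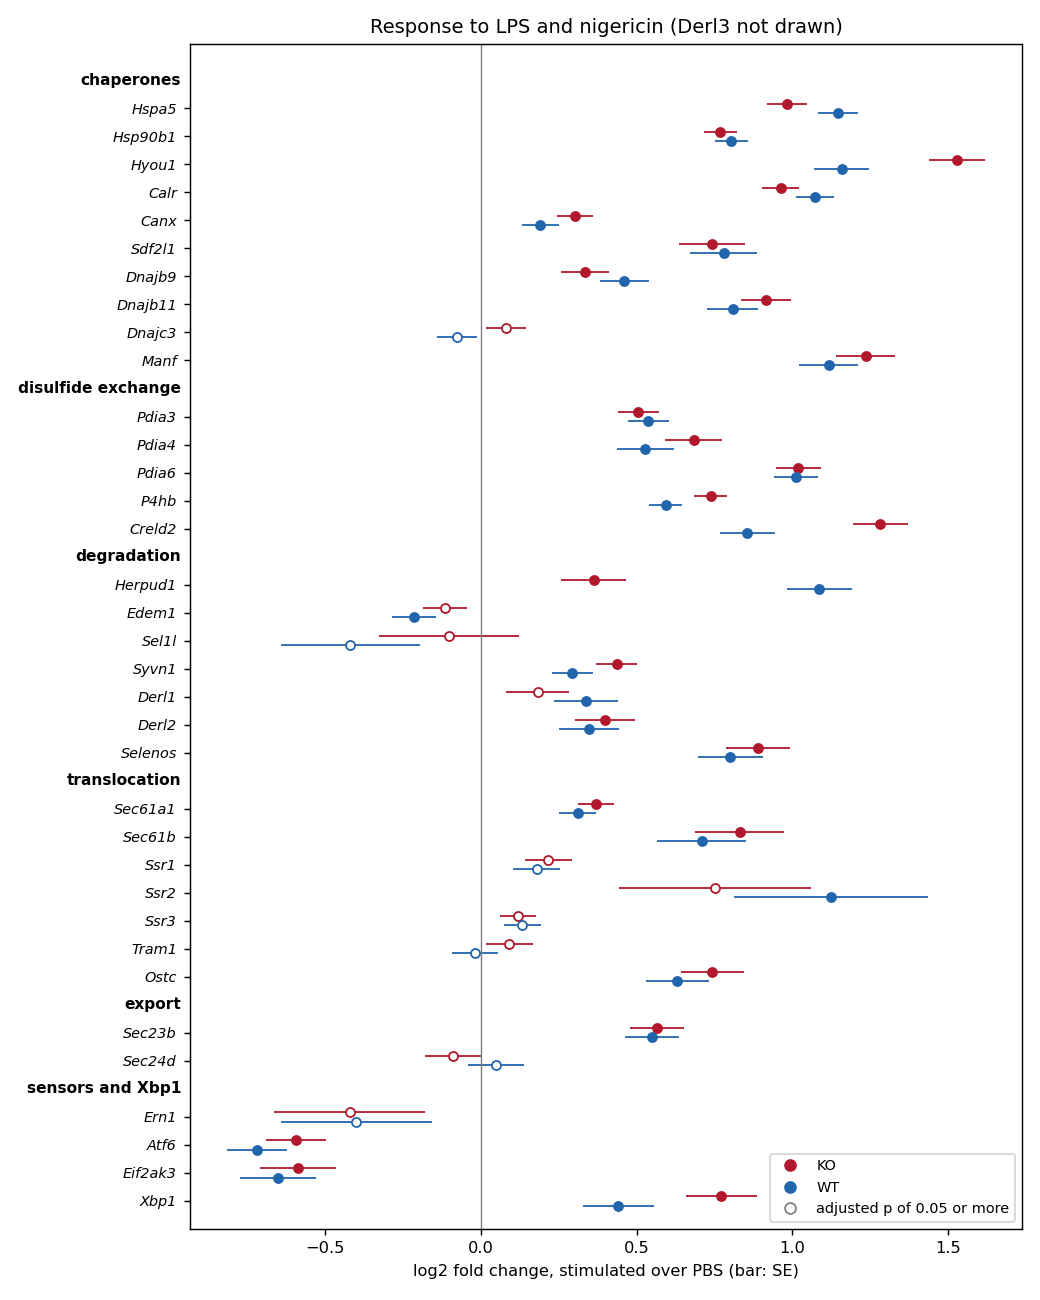
Log2 fold change of 35 members, stimulated over PBS, in KO (red) and WT (blue), with the standard error of the fit; open points have an adjusted p of 0.05 or more. Derl3, with few counts, is not drawn. Points lie mostly right of 0 among chaperones and disulfide exchange, and Atf6 and Eif2ak3 lie left of it in both genotypes.

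Of 10 chaperones, 9 rose in each genotype. With library size alone in WT, 8 rose and 1 fell. Hspa5 (BiP, the Hsp70 of the ER and the brake on all 3 sensors, ENSMUSG00000026864, chromosome 2, 34771970 to 34777547, plus strand) is the member whose window opens the list above. Its level was 949 and 961 CPM in stimulated KO, 721 and 786 in stimulated WT, 476 and 491 in KO with PBS and 335 and 346 in WT with PBS. The 4 groups did not overlap, with stimulated KO highest and WT with PBS lowest. The log2 change with stimulation was 0.98 ± 0.06 in KO (SE, n = 2 per group, adjusted p = 3.67e-05) and 1.15 ± 0.06 in WT (adjusted p = 1.79e-05), which in WT is 2.21-fold.

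Calr (calreticulin, a lectin chaperone and calcium buffer, ENSMUSG00000003814, chromosome 8, 84841850 to 84846934, minus strand) was the most abundant member per length, at a mean of 528 CPM per kb of exon in stimulated KO and 182 in WT with PBS. It had 1522 and 1517 CPM in stimulated KO, 1061 and 1139 in stimulated WT, 767 and 793 in KO with PBS and 532 and 514 in WT with PBS. As for Hspa5, the groups were fully separated. Stimulation raised it by 0.96 ± 0.06 log2 units in KO (adjusted p = 3e-05) and by 1.07 ± 0.06 in WT (adjusted p = 1.78e-05). An annotated processed pseudogene, Calr-ps, could share some of its reads.

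Hyou1, an Hsp110 relative that exchanges nucleotide on BiP, had the largest rise of the 10 in KO. It had 143 and 144 CPM in stimulated KO, 130 and 112 in stimulated WT, 50.99 and 48.7 in KO with PBS and 55.1 and 53.3 in WT with PBS. Stimulated libraries lay above all PBS libraries in both genotypes. The log2 change was 1.53 ± 0.09 in KO (adjusted p = 2.29e-05) and 1.16 ± 0.09 in WT (adjusted p = 7.93e-05).

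Manf, a secreted stress-induced factor that binds BiP, had 140.3 and 140.2 CPM in stimulated KO, 87.8 and 104 in stimulated WT, 61.6 and 57.5 in KO with PBS and 44.4 and 44.1 in WT with PBS. It rose by 1.24 ± 0.09 in KO and 1.12 ± 0.09 in WT. Exons of Manf share 326 bases with Dcaf1, Rbm15b and 4930524O07Rik, so some of these counts are uncertain, since the strand setting of the counting is not stated.

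The remaining chaperones moved less or at lower level. Hsp90b1 (GRP94, the Hsp90 of the ER) rose by 0.77 ± 0.05 in KO and 0.80 ± 0.05 in WT. Dnajb11, an Hsp40 partner of BiP, rose by 0.92 ± 0.08 in KO and 0.81 ± 0.08 in WT, and Sdf2l1, which works with Dnajb11, by 0.74 ± 0.11 in KO and 0.78 ± 0.11 in WT. The largest adjusted p among these and Manf was 0.00154, for Sdf2l1 in KO. Dnajb9 (ERdj4, a cochaperone in degradation and IRE1 control) rose by 0.33 ± 0.08 in KO (adjusted p = 0.0134) and 0.46 ± 0.08 in WT (adjusted p = 0.00328). Without replicate 2 of KO with PBS or replicate 1 of stimulated KO the KO call of Dnajb9 was lost (adjusted p up to 0.0981).

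Canx (calnexin, the membrane-bound lectin chaperone) showed the smallest rise that passed, 0.30 ± 0.06 in KO (adjusted p = 0.00596) and 0.19 ± 0.06 in WT (adjusted p = 0.0365). The KO call was lost without replicate 2 of stimulated KO (adjusted p = 0.0508). In WT it no longer passed without either stimulated KO library, either WT PBS library or replicate 2 of stimulated WT (adjusted p up to 0.148) and with library size alone (adjusted p = 0.942). Dnajc3 (p58IPK, an inhibitor of PERK and a BiP cochaperone) had 100 and 105 CPM in stimulated KO, 94.7 and 95.4 in stimulated WT, 96.97 and 97.1 in KO with PBS and 98.0 and 102 in WT with PBS. The levels stayed within a narrow band, and the change was 0.08 ± 0.06 in KO (adjusted p = 0.37) and -0.07 ± 0.06 in WT (adjusted p = 0.398), in a gene whose promoter holds the exact ERSE shown above. With library size alone the WT value was -0.26 (adjusted p = 0.0165).

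All 5 genes of disulfide exchange rose in both genotypes, and did so in each fit that left out 1 library. Pdia6, an isomerase that also attenuates IRE1, had 261 and 259 CPM in stimulated KO, 179 and 195 in stimulated WT, 125 and 131 in KO with PBS and 90.3 and 95.1 in WT with PBS. The 4 groups were separate, and the change was 1.02 ± 0.07 in KO (adjusted p = 5.05e-05) and 1.01 ± 0.07 in WT (adjusted p = 5.4e-05). Creld2, a small stress-induced protein with isomerase activity, had 49.3 and 45.4 CPM in stimulated KO, 33.6 and 35.4 in stimulated WT, 18.8 and 20.2 in KO with PBS and 19.4 and 18.7 in WT with PBS. Here the PBS groups overlapped and the stimulated groups did not. It rose by 1.28 ± 0.09 in KO (adjusted p = 4.71e-05) and by 0.86 ± 0.09 in WT (adjusted p = 0.000322). Among the abundant isomerases, P4hb (PDI) rose by 0.74 ± 0.05 in KO and 0.59 ± 0.05 in WT, and Pdia3 (ERp57, the partner of the lectin chaperones) by 0.51 ± 0.07 in KO and 0.54 ± 0.07 in WT. Pdia4 (ERp72) rose by 0.68 ± 0.09 in KO and 0.53 ± 0.09 in WT. The largest adjusted p among these 3 was 0.00358, for Pdia4 in WT.

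**Figure D3:**
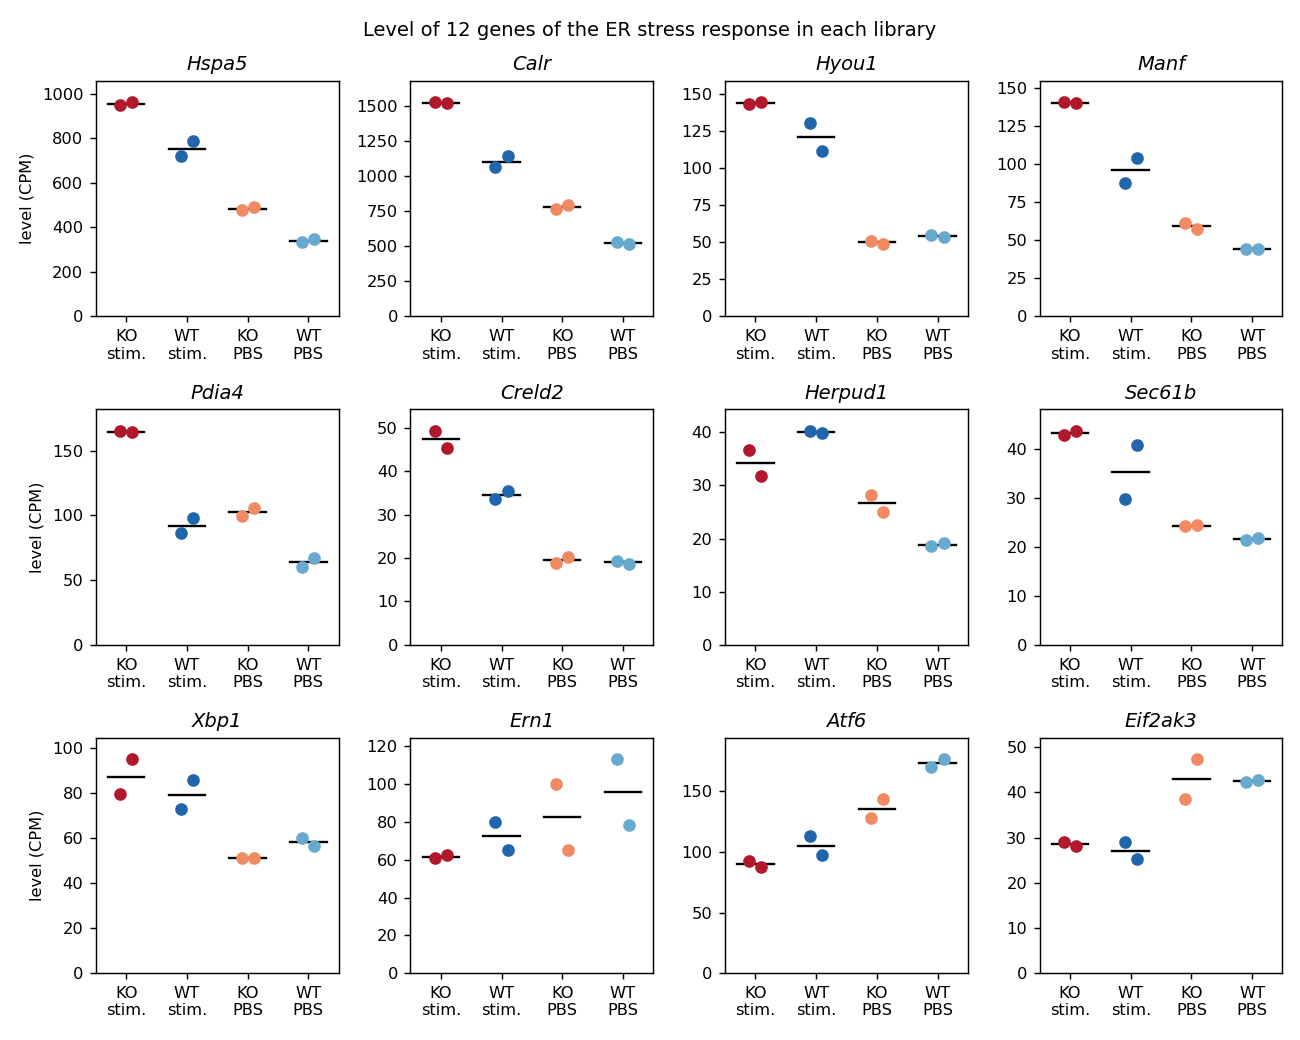
Level of 12 members in each library, in CPM, with the mean of the 2 libraries as a line; groups run from stimulated KO to WT with PBS. Under each treatment, both KO libraries exceed both WT libraries for Hspa5, Calr, Manf and Pdia4, Hyou1 separates by stimulation, and Atf6 is lowest after stimulation.

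Of 8 genes of ER-associated degradation, 4 rose in KO, and 5 rose and 1 fell in WT. Herpud1, a membrane scaffold of the degradation complex and an ATF4 and ATF6 target, had 36.7 and 31.7 CPM in stimulated KO, 40.2 and 39.8 in stimulated WT, 28.2 and 25.02 in KO with PBS and 18.6 and 19.1 in WT with PBS. KO lay above WT with PBS and below it after stimulation. Its change with stimulation was 0.36 ± 0.10 in KO (adjusted p = 0.0307) and 1.09 ± 0.11 in WT (adjusted p = 0.000245). The KO call was lost without replicate 2 of KO with PBS, replicate 1 of stimulated KO or replicate 1 of WT with PBS (adjusted p up to 0.19), with library size alone and with only the groups compared.

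Selenos, a selenoprotein that links p97 to the ER membrane, rose by 0.89 ± 0.10 in KO (adjusted p = 0.000585) and 0.80 ± 0.10 in WT (adjusted p = 0.000932). Syvn1 (HRD1, the ubiquitin ligase of the complex) rose by 0.44 ± 0.07 in KO and 0.29 ± 0.07 in WT, and Derl2, a derlin of the retrotranslocation channel, by 0.40 ± 0.10 in KO and 0.35 ± 0.10 in WT. Its relative Derl1 reached 0.18 ± 0.10 in KO (adjusted p = 0.209) and rose by 0.34 ± 0.10 in WT (adjusted p = 0.0368). Edem1, a lectin-like factor that directs glycoproteins to degradation, was at -0.12 ± 0.07 in KO (adjusted p = 0.243) and fell by 0.21 ± 0.07 in WT (adjusted p = 0.0489). These weaker calls depended on single libraries. In WT, Syvn1 was lost without either WT PBS library, Derl2 without those or replicate 2 of stimulated WT, and Derl1 and Edem1 in every leave-out but that of replicate 1 of stimulated WT (adjusted p up to 0.222). Edem1 was lost also without a filter on low counts and in a fit of the groups compared alone. In KO, Derl2 was lost without replicate 2 of either KO group (adjusted p up to 0.107). A degradation count that included them therefore ran from 2 to 4 higher in KO and from 2 to 5 higher in WT over the 8 fits. In WT it was 2 without either WT PBS library and 3 without replicate 2 of stimulated WT, and in KO it was 2 without replicate 2 of KO with PBS. Library size alone left 3 higher in KO and 2 higher and 1 lower in WT. Exons of Derl2 overlap Mis12, and those of Syvn1 overlap Mrpl49, on the opposite strand.

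Sel1l, the adaptor of HRD1, did not pass in either genotype. It had 153 and 159 CPM in stimulated KO, 103 and 136 in stimulated WT, 194 and 140 in KO with PBS and 188 and 131 in WT with PBS. Replicate 1 was the higher PBS library in both genotypes, and the spread between libraries covered the difference between treatments. The change was -0.10 ± 0.22 in KO (adjusted p = 0.763) and -0.42 ± 0.22 in WT (adjusted p = 0.183). Derl3 stayed below 0.31 CPM in every library and did not pass in KO (adjusted p = 0.177) or in WT (adjusted p = 0.743).

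Among 7 translocon and glycosylation genes, 3 rose in KO and 4 in WT. Sec61b and Sec61a1, subunits of the protein-conducting channel, rose by 0.83 ± 0.14 and 0.37 ± 0.06 in KO and by 0.71 ± 0.14 and 0.31 ± 0.06 in WT. Ostc, a subunit of the oligosaccharyltransferase, rose by 0.74 ± 0.10 in KO and 0.63 ± 0.10 in WT. The largest adjusted p among these was 0.0071, for Sec61b in WT, and the WT call of Sec61a1 was lost with library size alone (adjusted p = 0.13). Ssr2, a subunit of the translocon-associated protein complex, had 69.9 and 106 CPM in stimulated KO, 87.8 and 109 in stimulated WT, 66.9 and 37.6 in KO with PBS and 40.1 and 50.2 in WT with PBS. It passed in WT (1.12 ± 0.31, adjusted p = 0.0263) and not in KO (0.75 ± 0.31, adjusted p = 0.0995), with the widest spread between libraries of the 7. Leaving out either WT PBS library or replicate 2 of stimulated WT ended the WT call (adjusted p up to 0.131). Its partners Ssr1 and Ssr3, and Tram1, a translocating-chain factor, did not pass in either genotype, with changes between -0.02 (Tram1 in WT) and 0.22 (Ssr1 in KO). With library size alone, Tram1 was at -0.21 in WT (adjusted p = 0.0382).

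Sec23b and Sec24d belong to the COPII coat, which carries folded cargo out of the ER. Sec23b rose by 0.57 ± 0.09 in KO (adjusted p = 0.00217) and 0.55 ± 0.09 in WT (adjusted p = 0.00241). Sec24d, whose promoter holds the XBP1-bound element, was at -0.09 ± 0.09 in KO (adjusted p = 0.482) and 0.05 ± 0.09 in WT (adjusted p = 0.701).

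Of the 4 genes of the sensor branch (Atf6, Eif2ak3, Ern1 and Xbp1), 2 fell and 1 rose in each genotype. Atf6 (ENSMUSG00000026663, chromosome 1, 170704674 to 170867771, minus strand) had 91.9 and 87.3 CPM in stimulated KO, 113 and 97.3 in stimulated WT, 127 and 143 in KO with PBS and 169 and 176 in WT with PBS. Every stimulated library lay below every PBS library. Atf6 fell by 0.59 ± 0.10 log2 units in KO (adjusted p = 0.00281) and by 0.72 ± 0.10 in WT (adjusted p = 0.00114). Eif2ak3 (PERK) had 29.1 and 28.1 CPM in stimulated KO, 29.1 and 25.2 in stimulated WT, 38.6 and 47.3 in KO with PBS and 42.4 and 42.8 in WT with PBS. It too was lower in every stimulated library, and it fell by 0.59 ± 0.12 in KO (adjusted p = 0.00819) and 0.65 ± 0.12 in WT (adjusted p = 0.00514). Without replicate 2 of stimulated KO the KO call was lost (adjusted p = 0.053), which left 1 member lower in KO.

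Ern1 (IRE1) had 60.8 and 62.2 CPM in stimulated KO, 79.7 and 65.1 in stimulated WT, 99.7 and 64.97 in KO with PBS and 113 and 78.1 in WT with PBS. Replicate 1 was the higher PBS library in both genotypes, as for Sel1l. The change was -0.42 ± 0.24 in KO (adjusted p = 0.218) and -0.40 ± 0.24 in WT (adjusted p = 0.235). Xbp1, whose mRNA IRE1 splices, had 79.5 and 94.9 CPM in stimulated KO, 73.1 and 85.6 in stimulated WT, 51.05 and 51.1 in KO with PBS and 60.1 and 56.7 in WT with PBS. The gene-level counts do not separate its spliced from its unspliced form. Xbp1 rose by 0.77 ± 0.11 in KO (adjusted p = 0.00184) and by 0.44 ± 0.11 in WT (adjusted p = 0.0199). In WT, Xbp1 no longer passed when either WT PBS library or replicate 2 of stimulated WT was left out (adjusted p up to 0.102) and with library size alone (adjusted p = 0.104).

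The second comparison set KO against WT within a treatment, to ask how these genes differ between Lyz2-Cre-Mettl3fl/fl and Mettl3fl/fl cells. KO libraries carried more mRNA of 3 chaperones (Calr, Hsp90b1 and Hspa5) and 3 isomerases (Pdia3, Pdia4 and Pdia6), both after stimulation and with PBS. No member was lower by the test, and the calls rested on few libraries, as given further on. After stimulation 8 of 36 genes were higher in KO and 0 were lower, against 2.91% and 2.01% of all genes (edgeR, adjusted p below 0.05). With PBS 6 were higher and 0 lower, against 1.20% and 0.355% of all genes. Median log2 differences of the 36 were 0.11 after stimulation and 0.01 with PBS, beside -0.00 and 0 over all genes. Among members lower in KO, 3 (Sec23b, Sec24d and Atf6) had an unadjusted p below 0.05 after stimulation. With PBS 4 did (Syvn1, Derl3, Sec23b and Atf6), and neither DESeq2 nor limma-voom called any. The share of all genes at that unadjusted threshold was not counted. The 6 called with PBS were all called after stimulation, where Manf and Creld2 passed in addition.

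**Figure D4:**
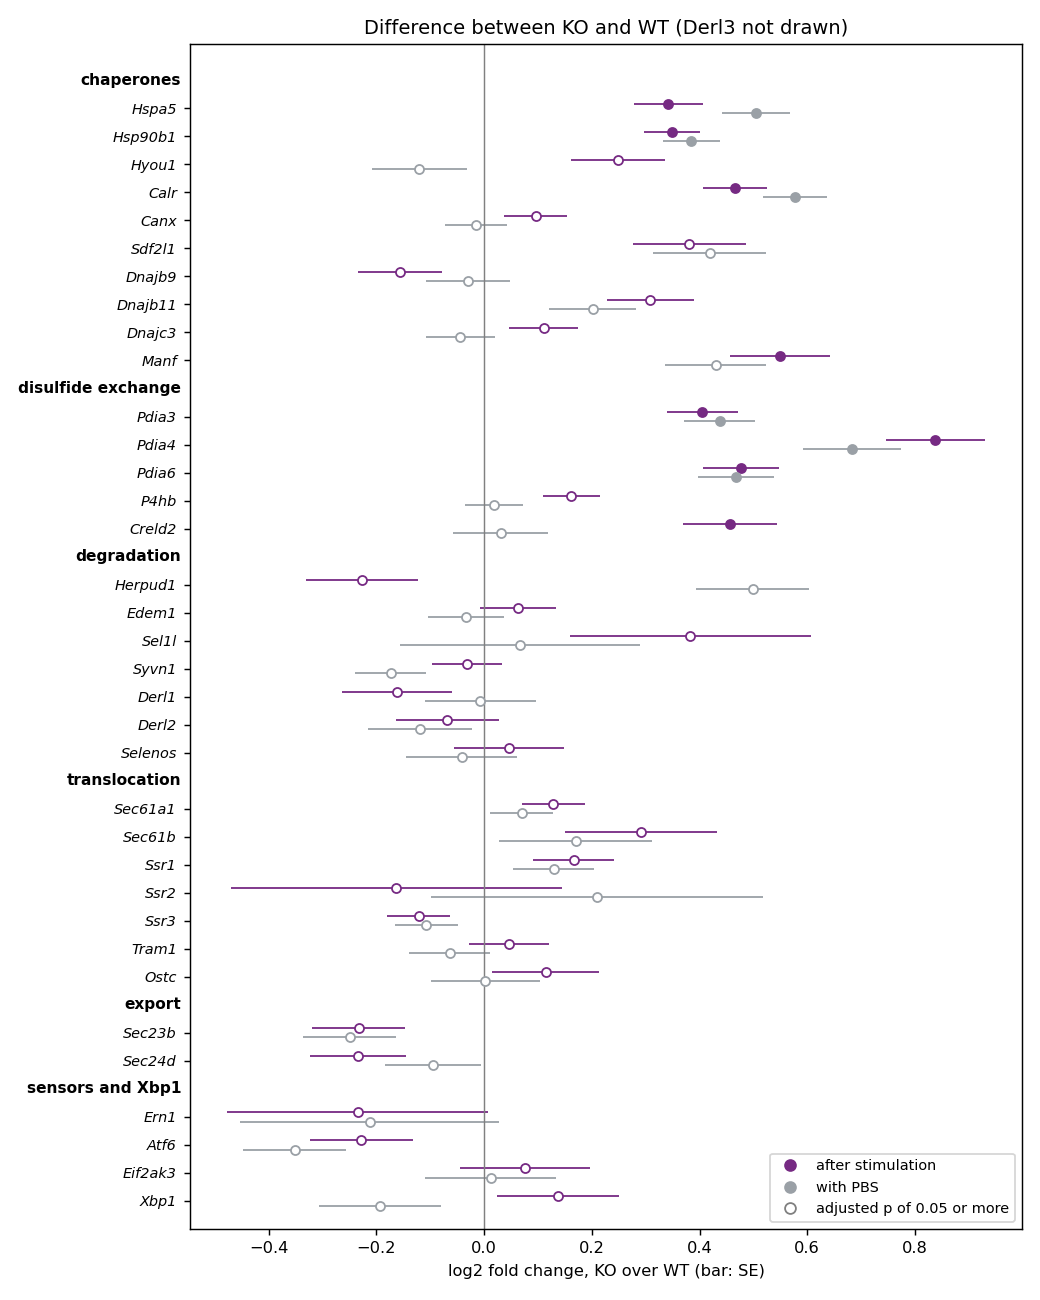
Log2 fold change of 35 members, KO over WT, after stimulation (purple) and with PBS (grey), with the standard error of the fit; open points have an adjusted p of 0.05 or more. Derl3 is not drawn. Filled points lie among chaperones and disulfide exchange, and the other 4 roles hold open points.

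By role, 4 of 10 chaperones and 4 of 5 disulfide exchange genes passed after stimulation, 3 of 10 and 3 of 5 passed with PBS, and 0 of the 21 genes of the other roles passed with either treatment. Pdia4 (ENSMUSG00000025823, chromosome 6, 47796141 to 47813430, minus strand) showed the largest difference of the 36 after stimulation. It had 165 and 164 CPM in stimulated KO and 86.5 and 97.8 in stimulated WT, and 99.3 and 106 CPM in KO with PBS and 60.4 and 67.5 in WT with PBS. KO with PBS lay above even stimulated WT. The KO over WT difference was 0.84 ± 0.09 after stimulation (adjusted p = 0.00602) and 0.68 ± 0.09 with PBS (adjusted p = 0.0204).

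For Calr, with the levels given above, the difference was 0.47 ± 0.06 after stimulation (adjusted p = 0.00988) and 0.58 ± 0.06 with PBS (adjusted p = 0.00907). For Hspa5 it was 0.34 ± 0.06 after stimulation (adjusted p = 0.0328) and 0.51 ± 0.06 with PBS (adjusted p = 0.0171). Hsp90b1 had 859 and 885 CPM in stimulated KO and 679 and 691 in stimulated WT, and 509.6 and 515 CPM in KO with PBS and 394 and 391 in WT with PBS. Its groups did not overlap, and the difference was 0.35 ± 0.05 after stimulation (adjusted p = 0.0171) and 0.38 ± 0.05 with PBS (adjusted p = 0.0222). Exons of Hsp90b1 share 632 bases with annotated neighbours, 1810014B01Rik among them, which reached at most 1475 counts in a library. Hsp90b1 itself held at least 25644 counts per library.

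Pdia3 had 778 and 783 CPM in stimulated KO and 559 and 620.3 in stimulated WT, and 545 and 554 CPM in KO with PBS and 403 and 409 in WT with PBS. KO libraries again lay above WT libraries of the same treatment, by 0.41 ± 0.07 after stimulation (adjusted p = 0.0216) and 0.44 ± 0.07 with PBS (adjusted p = 0.03). Pdia6 differed by 0.48 ± 0.07 after stimulation (adjusted p = 0.0162) and 0.47 ± 0.07 with PBS (adjusted p = 0.0302). Manf differed by 0.55 ± 0.09 after stimulation (adjusted p = 0.0251) and was at 0.43 ± 0.09 with PBS (adjusted p = 0.0915). Creld2 differed by 0.46 ± 0.09 after stimulation (adjusted p = 0.0361) and was at 0.03 ± 0.09 with PBS (adjusted p = 0.923).

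These genotype calls rested on few libraries. After stimulation, all 8 calls were lost without replicate 1 of stimulated KO, and all but that of Pdia4 without replicate 2 of stimulated KO, so that 0 and 1 genes passed. In that comparison 4 genes passed without replicate 1 of stimulated WT and 5 without replicate 1 of WT with PBS. Hspa5 was lost in every leave-out but that of replicate 2 of stimulated WT, and Creld2 in all 8 (adjusted p up to 0.209) and with no filter on low counts. Manf was lost also without replicate 1 of WT with PBS or of stimulated WT, and Pdia6 also without replicate 1 of stimulated WT. With PBS, 1 gene passed without replicate 1 of KO with PBS or without either stimulated KO library, and 0 passed without replicate 2 of KO with PBS or without either WT PBS library. The 1 gene was Calr, while the other 5 calls were lost in each of these 6 fits (adjusted p up to 0.179). A fit of only the groups compared left 4 genes after stimulation, without Hspa5, Manf, Pdia3 and Creld2, and 0 with PBS. Library size alone, which moved the all-gene median after stimulation to 0.13, gave 14 higher and 0 lower there. Over all 17470 genes it gave 1044 higher and 236 lower.

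Some members that did not pass still had KO and WT libraries without overlap. Herpud1 with PBS was at 0.50, a larger difference than that of Hsp90b1, which passed. P4hb had 794 and 801 CPM in stimulated KO and 699 and 726 in stimulated WT, a difference of 0.16 ± 0.05 (adjusted p = 0.157). With PBS, where the libraries overlapped, P4hb was at 0.02 ± 0.05 (adjusted p = 0.929). Sdf2l1 was higher in every KO library of both treatments, by 0.38 ± 0.11 (adjusted p = 0.0987) after stimulation and 0.42 ± 0.11 (adjusted p = 0.131) with PBS, without passing. Dnajb11 likewise had 0.31 ± 0.08 (adjusted p = 0.0867) after stimulation and 0.20 ± 0.08 (adjusted p = 0.304) with PBS. DESeq2 called 10 members higher after stimulation and 9 with PBS, with Sdf2l1 in both sets. It also called more of all 17470 genes higher than edgeR did, 933 after stimulation and 556 with PBS. For Atf6, both KO libraries lay below both WT libraries under each treatment, at -0.23 ± 0.10 (adjusted p = 0.252) after stimulation and -0.35 ± 0.10 (adjusted p = 0.155) with PBS. Sec23b showed the same order, at -0.23 ± 0.09 after stimulation (adjusted p = 0.2) and -0.25 ± 0.09 with PBS (adjusted p = 0.241). The differences of Ern1, Eif2ak3, Xbp1 and the 7 translocon genes lay between -0.23 and 0.29 with either treatment, and none passed.

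The difference between the stimulation responses of KO and WT was tested as an interaction, in which both genotype comparisons and both responses share libraries. No member passed by edgeR in either direction, 0 higher and 0 lower, against 0.103% and 0.395% of all genes. At an unadjusted p below 0.05, 2 members had a larger change in KO (Hyou1 and Creld2) and 1 a smaller change (Herpud1). How many of all genes reach that unadjusted threshold was not counted. DESeq2 called 1 (Herpud1, -0.72, adjusted p = 0.00849) and limma-voom 0. Over all 17470 genes DESeq2 called 189 higher and 292 lower, more than edgeR did. Hyou1 differed by 0.37 ± 0.12 (adjusted p = 0.334), Creld2 by 0.43 ± 0.12 (adjusted p = 0.252) and Herpud1 by -0.725 ± 0.15 (adjusted p = 0.117). Neither these values nor the missed threshold show that the responses of KO and WT are alike.

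Genes with the exact ERSE and genes without it can be set side by side among the 28 members with a promoter. Of the 9 with the element, 7 rose and 0 fell with stimulation in KO and the same counts held in WT. Of the 19 without it, 12 rose and 1 fell in KO, and 12 rose and 2 fell in WT. Higher in KO than in WT were 5 of the 9 after stimulation and 4 of the 9 with PBS, against 2 of 19 with each treatment. The median KO over WT difference after stimulation was 0.34 with the element and 0.08 without it, and with PBS it was 0.03 and 0.01. The 2 without an exact copy were Pdia3 and Pdia4, which held the element with 1 mismatch. The 14 genes found with 1 mismatch allowed also include Canx, Derl2, Derl3, Dnajc3, Herpud1, Sel1l and Syvn1. None of these passed as higher in KO with either treatment. These counts describe the list and were not tested.

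Other genes of the same pathways were taken from 7 lists of 111 genes. In all, 53 rose and 12 fell with stimulation in KO, and 54 rose and 10 fell in WT, beside the 20.2% and 19.0% of all genes in KO and the 20.6% and 20.0% in WT. Between genotypes, 4 were higher and 5 lower in KO after stimulation, where the share higher was near the 2.91% of all genes and 2.01% of all genes were lower. With PBS 0 differed by edgeR. At an unadjusted p below 0.05, 9 were higher and 6 lower with PBS, and the share of all genes there was not counted. Prolyl hydroxylase P4ha1 and the PDI oxidase Ero1l led the other oxidoreductases, of which 6 of 13 rose in KO and 4 in WT. P4ha1 rose by 1.29 ± 0.07 in KO and 1.14 ± 0.07 in WT, and Ero1l by 0.99 ± 0.06 in KO and 0.78 ± 0.06 in WT. The related oxidase Ero1lb fell in both, by 0.89 ± 0.08 in KO and 0.81 ± 0.08 in WT. In N-glycosylation and the calnexin cycle, 10 of 16 rose in each genotype, with Ddost, an oligosaccharyltransferase subunit, up by 0.76 ± 0.06 in KO and 0.79 ± 0.06 in WT. Of 17 other degradation factors 6 rose and 4 fell in KO, and 7 rose and 4 fell in WT, a balance that turned with library size alone, where 4 rose and 4 fell in KO and 4 rose and 6 fell in WT. The 4 falls were 23.5% of that list, near the share of all genes. Of 18 other targeting and translocation genes 7 rose in each genotype. Of 19 other genes of ER export 8 rose in each genotype, among them the cargo receptor Lman1 (0.90 ± 0.06 in KO and 0.91 ± 0.06 in WT). Of 16 other transducers of the stress response 9 rose and 5 fell in KO, and 7 rose and 3 fell in WT. Among these, Atf6b, the paralog of Atf6, rose by 1.00 ± 0.07 in KO and 0.87 ± 0.07 in WT, while Atf6 fell. Crebrf, a regulator of CREB3-type factors, fell by 1.90 ± 0.10 in KO and 1.92 ± 0.10 in WT. The largest adjusted p among the genes named with values was 0.000231, for Ero1lb in WT. Several of these counts moved with 1 library. The rises among other degradation factors in WT were 4 in every leave-out but that of replicate 1 of stimulated WT. Those among export genes were 5 in KO without any 1 of the 4 KO libraries and 5 in WT without replicate 2 of stimulated WT. The transducers had 4 rises in WT without replicate 1 of WT with PBS, and 3 falls in KO without replicate 2 of KO with PBS or either stimulated KO library.

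Higher in stimulated KO than in stimulated WT were Txndc5, an ER isomerase (0.36 ± 0.07, adjusted p = 0.0407), Mogs, the first glucosidase of N-glycan trimming (0.47 ± 0.10, adjusted p = 0.0453), Surf4, a cargo receptor (0.27 ± 0.06, adjusted p = 0.0469), and Bax, an apoptosis effector (0.40 ± 0.06, adjusted p = 0.0209). Txndc5, Mogs and Surf4 passed in 0 of the 8 fits that left out 1 library (adjusted p up to 0.243), and Bax passed in 3, being lost without any 1 of the 4 stimulated libraries or replicate 1 of WT with PBS (up to 0.143). Bax also passed as a difference of responses (0.64 ± 0.09, adjusted p = 0.0466), a call lost in all 8 fits that left out 1 library. The lower 5 all belonged to the ATF4 and CHOP arm, the branch below PERK and other eIF2 kinases. Of its 12 genes, 7 rose and 1 fell with stimulation in KO and 11 rose in WT, and the 5 lower in stimulated KO than in stimulated WT were Sesn2, Ddit3, Asns, Trib3 and Atf3. The stress-induced metabolic regulator Sesn2 had 34.6 and 33.8 CPM in stimulated KO and 69.2 and 70.2 in stimulated WT (-1.03 ± 0.11, adjusted p = 0.00611). Ddit3, which encodes CHOP, had 40.8 and 38.7 CPM in stimulated KO and 71.2 and 75.95 in stimulated WT (-0.89 ± 0.10, adjusted p = 0.00618). Asns, asparagine synthetase, had 27.9 and 30.7 CPM in stimulated KO and 80.2 and 87.0 in stimulated WT (-1.51 ± 0.17, adjusted p = 0.00676). Hence after stimulation the libraries highest in chaperone mRNA, those of KO, were the lower ones in these 3 ATF4 targets. All 5 calls were lost without replicate 1 of stimulated KO, and those of Trib3 and Atf3 also without any other stimulated library. Sesn2 and Ddit3 no longer passed when 1 of the stimulated KO libraries was left out (adjusted p up to 0.0557), and Asns without replicate 1 of stimulated KO (0.066). In this arm the difference of responses passed for 0 of 12 genes (edgeR), with 6 smaller in KO at an unadjusted p below 0.05. All genes were not counted at that unadjusted threshold.

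**Figure D5:**
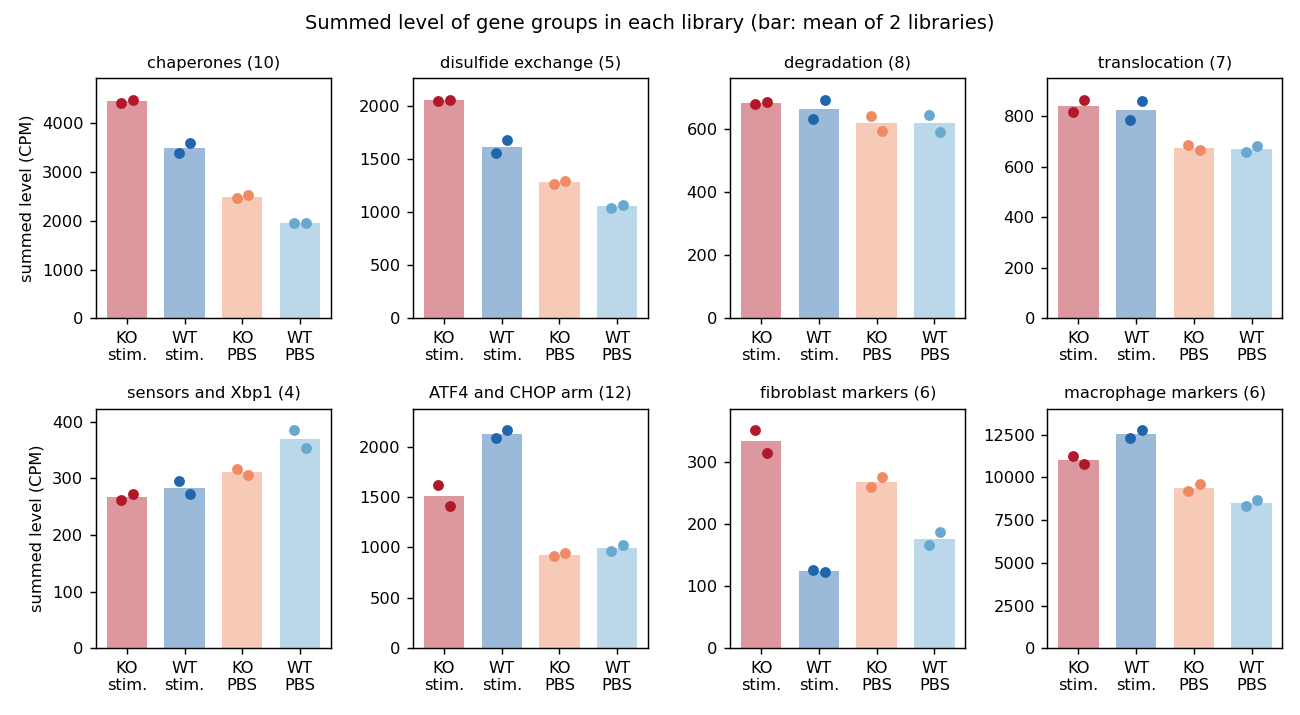
Summed level in CPM of 5 roles of members, the ATF4 and CHOP arm and 2 marker lists in each library (points), with the mean of the 2 libraries as a bar; the number of genes summed is in each title. Chaperones and disulfide exchange are highest in stimulated KO, the ATF4 and CHOP arm in stimulated WT, and fibroblast markers in both KO groups.

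Summed over the 10 chaperones the level was 4427 and 4476 CPM in stimulated KO, 3401 and 3595 in stimulated WT, 2469 and 2525 in KO with PBS and 1952 and 1949 in WT with PBS. Of the 6 macrophage markers, 3 lay lower and 2 higher in KO after stimulation, without overlap, and 1 passed, lower in KO. With PBS 1 lay lower and 3 higher in KO without overlap, and 0 of the macrophage markers passed. The share of all genes without overlap was not counted. Some markers of other cells also differed by genotype, while 0 of the 5 neutrophil markers tested passed with either treatment. The 6 fibroblast markers, all detected, summed to 351 and 315 CPM in stimulated KO, 126 and 123 in stimulated WT, 259 and 277 in KO with PBS and 167 and 187 in WT with PBS. Of the 6, 5 were higher in KO after stimulation and 2 with PBS (Col3a1 and Dcn), where the count was 0 without any 1 of the 4 PBS libraries and 1 without either stimulated KO library. Fibroblasts are known for secreting collagen through the ER. Col1a1 had 119 and 108 CPM in stimulated KO and 45.7 and 44.4 in stimulated WT, and 81.0 and 87.96 CPM in KO with PBS and 56.2 and 63.5 in WT with PBS. Of 8 plasma and B cell markers, 4 had enough counts to test, and 2 were higher in KO after stimulation (Jchain and Cd79a) and 1 with PBS (Jchain). Over the 8 fits that left out 1 library the count after stimulation was 0 to 1. Jchain, which marks plasma cells, had 2.19 and 2.59 CPM in stimulated KO and 0.327 and 0.396 in stimulated WT, and 1.87 and 1.75 CPM in KO with PBS and 0.184 and 0.331 in WT with PBS. The calls of Jchain (log2 2.72 ± 0.35 after stimulation, adjusted p = 0.00964, and 2.80 ± 0.35 with PBS, adjusted p = 0.0167) were lost without either stimulated KO library or replicate 1 of stimulated WT after stimulation. With PBS they were lost without either KO PBS library, replicate 2 of stimulated KO or replicate 1 of WT with PBS. The sum of the plasma and B cell list was 326 and 353 CPM in stimulated KO, 325 and 356 in stimulated WT, 282 and 219.9 in KO with PBS and 296 and 222 in WT with PBS, nearly all of it from Sdc1, which macrophages also express. Of 4 osteoclast markers, Ctsk had 42.5 and 40.9 CPM in stimulated KO and 16.1 and 17.6 in stimulated WT, and 145 and 164 CPM in KO with PBS and 52.1 and 54.8 in WT with PBS, higher in KO both times (adjusted p = 0.00144 and 0.00126). Acp5 had the other order after stimulation, with 383 and 381 CPM in stimulated KO and 476 and 535 in stimulated WT (log2 -0.40 ± 0.09, adjusted p = 0.0573), and 139 and 128 CPM in KO with PBS and 106 and 93.8 in WT with PBS (0.42 ± 0.09, adjusted p = 0.0938). Calcr passed after stimulation, while Ocstamp stayed at or below 0.308 CPM. Markers of T and NK cells summed to at most 0.123 CPM in a library, and those of dendritic cells to at most 0.4596. The part of fibroblast, plasma cell or osteoclast RNA in the KO over WT differences of the chaperones was not tested.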

How the data were processed

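Per the labels' protocols, total RNA was extracted with Trizol and made into RNA-seq libraries with a kit. The authors deposited whole-number counts per gene for 8 libraries. The submitters' processing notes name Trimmomatic, Bowtie2, edgeR and the build mm10, without versions. The counting tool, its annotation and its strand setting were not given in any source used here. Symbols, coordinates and exon lengths come from GENCODE M21 (GRCm38), and for Ddit3, which has more than 1 gene ID, the ID with the longest exons was used. The members and lists were chosen with earlier results of these data known.

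Counts were fitted as deposited with edgeR 4.0.16 in R 4.3.3. Genes were kept by filterByExpr (minimum count 10, total 15), TMM factors were used, and 1 model held all 8 libraries, with a coefficient for each group, which leaves 4 residual degrees of freedom. Quasi-likelihood F tests were adjusted by Benjamini-Hochberg over all 17470 genes per contrast. Standard errors are the unshrunk log2 change over the root of F. CPM per kb divides by the exon union. Alternatives were DESeq2's size factors, library size alone, DESeq2 1.42.0, limma-voom 3.58.1, no filter, at least 5 CPM in 2 or more libraries, the groups compared alone, a replicate block and each library left out. All 36 members are named, and from each other list at most the 3 genes with the smallest adjusted p per contrast. Trib3 and Atf3 complete a count of 5, and the cell type markers named were picked after their values were seen. Promoters come from RefSeq (GRCm38.p6). Figures were drawn with matplotlib 3.10.9.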

Additional observations from a re-analysis of the deposited data

Results flagged for a closer look

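For 3 members the libraries of KO and WT fell in opposite orders under the 2 conditions compared, without overlap. The share of all genes with such orders was not counted, so the 3 are described and not read as a result. The difference between the responses of KO and WT was tested as an interaction, and none passed by edgeR's quasi-likelihood test with Benjamini-Hochberg adjustment.

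Dnajc3, the PERK inhibitor, lay above its PBS libraries after stimulation in KO and below them in WT. By genotype it was higher in KO than in WT after stimulation and lower in KO with PBS. The interaction was 0.1552 ± 0.0907 on the log2 scale (SE, n = 2 per group, adjusted p = 0.609).

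Herpud1, the degradation scaffold, was lower in KO than in WT after stimulation and higher in KO with PBS. Its interaction was -0.725 ± 0.147 (adjusted p = 0.117, and 0.00849 by DESeq2).

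Hyou1, the nucleotide exchange factor of BiP, was higher in KO than in WT after stimulation and lower in KO with PBS. Its interaction was 0.3688 ± 0.124 (adjusted p = 0.334).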

How the results depend on the processing

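Of 1399 values of single members under alternatives other than leaving out a library, 1354 kept their direction where called and their side of the threshold, 26 lost a call, 19 gained one and 0 reversed. Of 1440 values with 1 library left out, 1331 kept both, 101 lost a call, 8 gained one and 0 reversed. Library size alone gave 5 members lower with stimulation in WT, beside 4720 of all 17470 genes. The same scaling gave 14 members higher in KO after stimulation, beside 1044 of all genes. It moved the all-gene medians to -0.11 and -0.20 for stimulation in KO and WT and to 0.13 and 0.03 for KO over WT after stimulation and with PBS. Fits of only the groups compared gave 4 members higher in KO after stimulation and 0 with PBS. The difference of responses needs all 4 groups and could not be fitted this way. DESeq2 gave 1 member with a smaller response in KO, beside 292 of all 17470 genes. With each library left out in turn, the members higher in KO were 0 to 9 after stimulation and 0 to 7 with PBS. Those higher with stimulation were 20 to 24 in KO and 19 to 26 in WT, and those lower were 1 to 2 in KO and 2 to 3 in WT. In every leave-out 20 of 25 stimulation calls in KO and 21 of 28 in WT were kept, and 0 of 8 and 0 of 6 genotype calls after stimulation and with PBS. Deviations of same-numbered libraries correlated at 0.101 between KO and WT with PBS, and between -0.015 and 0.018 for the other pairs of groups. Sel1l and Ern1 were higher in replicate 1 of both PBS groups. A replicate block shifts all 4 groups alike, so it does not take up a pattern of the PBS groups alone. The replicate block gave 23 higher and 2 lower in KO and 25 higher and 2 lower in WT with stimulation, and 7 and 6 higher in KO than in WT after stimulation and with PBS, and it lost the calls of Edem1 with stimulation in WT and Creld2 between genotypes after stimulation. With 2 libraries per group, differences of the size of the library spread are not detectable.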
